A study of Mus musculus with 92 samples.

Results

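Crypts were compared with villi of the small intestine in mice that carried 2 floxed copies of Eif4g2 and the tamoxifen-inducible Vil1-CreER driver, Eif4g2(flox/flox),Vil1(CreER), at the time labelled 3 months. The 9 libraries, of 92 in the series, were chosen by their labels alone: 3 from crypts and 6 from villi. The animal numbers in the labels tie the 3 crypt libraries to 3 of the 6 animals that gave villi, so the other 3 villus libraries had no crypt partner. Crypt replicates 1, 2 and 3 came from the animals of villus replicates 1, 2 and 4. Values were set beside 4 crypt and 4 villus libraries of Eif4g2(flox/+),Vil1(CreER) mice of the same driver and time, which keep 1 copy and also express the recombinase. A second set came from Rosa26-CreER mice on day 9, with 4 homozygous and 5 heterozygous crypt libraries and 5 villus libraries of each genotype. The Vil1-CreER mice received tamoxifen at 100 mg/kg daily on 4 consecutive days. The Rosa26-CreER mice are labelled as treated with tamoxifen, with no dose in the labels of those samples, so no group was without floxed allele, recombinase or drug. Sex, age at injection and the stretch of intestine sampled are not given in the sources used here. RNA was measured by sequencing of poly(A)-selected RNA, and levels are depth-scaled counts (CPM, computed in edgeR) after scaling over the 17 Vil1-CreER libraries.

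The small intestinal epithelium is renewed from stem cells at the base of the crypts, whose daughters divide in the crypt and then move up the villus, where they mature as absorptive or secretory cells. Wnt and Notch signals are strong at the crypt base, BMP signals are strong on the villus, and absorptive genes switch on in zones from villus bottom to tip. Eif4g2 encodes DAP5, a relative of the scaffold protein eIF4G1 that lacks the part binding the cap-binding protein eIF4E and takes part in translation of selected mRNAs. The Vil1 promoter drives the recombinase in epithelial cells, so immune, stromal and endothelial cells of the homozygous mice keep both copies, while Rosa26 drives it in most cell types.

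Eif4g2 (chr7:111067750-111083030 on the minus strand, GRCm38) was still counted in every homozygous library, and more so in crypts. Its level was 240, 240 and 231 CPM in the 3 homozygous crypts and ran from 134 through a median of 147 to 182 CPM in the 6 villi. The groups did not overlap, and the log2 fold change of crypts over villi was 0.69 ± 0.11 (SE; adjusted p = 0.000182, edgeR). The heterozygous crypts had 437 to 488 CPM and the heterozygous villi 357 to 475 CPM, above every homozygous library of the same tissue. The crypt-villus difference of Eif4g2 was not shown to differ between the genotypes (difference 0.36 ± 0.17, adjusted p = 0.151). The counts cover the gene as a whole and do not show which exons remain, and epithelial and other cells contribute to them together.

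Vil1-CreER libraries held 23957033 to 36985500 counts. Several library properties differed between homozygous crypts and villi, and the plot of other-cell markers shows them. Counts from the mitochondrial genome made up 35.7% ± 4.98 (SD, n = 3) of the crypt libraries and 12.5% ± 5.99 (SD, n = 6) of the villus libraries, a gap of 23.2 percentage points (exact two-sided permutation p = 0.0119, the smallest the 84 arrangements allow). That test took the 9 libraries as independent, although each crypt library shares its animal with a villus library. In these animals the share was 40.3%, 30.4% and 36.4% in crypts against 23.5%, 8.12% and 6.86% in villi. The 7 B cell markers summed to 624 to 824 CPM in homozygous crypts and 34.4 to 148 CPM in villi, and the globin genes to 264 to 463 and 9.75 to 30.9 CPM. The 10 T cell markers overlapped between the tissues, at 332 to 421 CPM in crypts and 105 to 424 CPM in villi, while the heterozygous villi had 654 to 1310 CPM. The 8 epithelial markers, which include Krt20 and Vil1, summed to 4480 to 5440 CPM in homozygous crypts and 17800 to 23500 CPM in villi. Heterozygous libraries were at 3970 to 5110 and 14100 to 17700 CPM. In each genotype 6 of the 8 were called higher in villi, so their sum is not a measure of epithelial share. Epithelial RNA was thus counted in both tissues, and the share of epithelial cells in each library was not tested. Fabp6, the bile acid binding protein of the ileum, was counted in all 9 homozygous libraries (20.9, 70.4 and 78.3 CPM in crypts, 284 to 770 CPM in villi). In 2 of the 4 heterozygous animals Fabp6 lay at 0.304 and 0.361 CPM in crypts and at 0 in villi. These 2 animals lacked what the homozygous libraries held of this gene, so each difference between genotypes below was also computed without them. That alternative was added once the values of Fabp6 had been seen. In bulk tissue, fewer cells of a type and less RNA per cell cannot be told apart. Library labels give separate animals but no batch or extraction date.

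**Figure D1:**
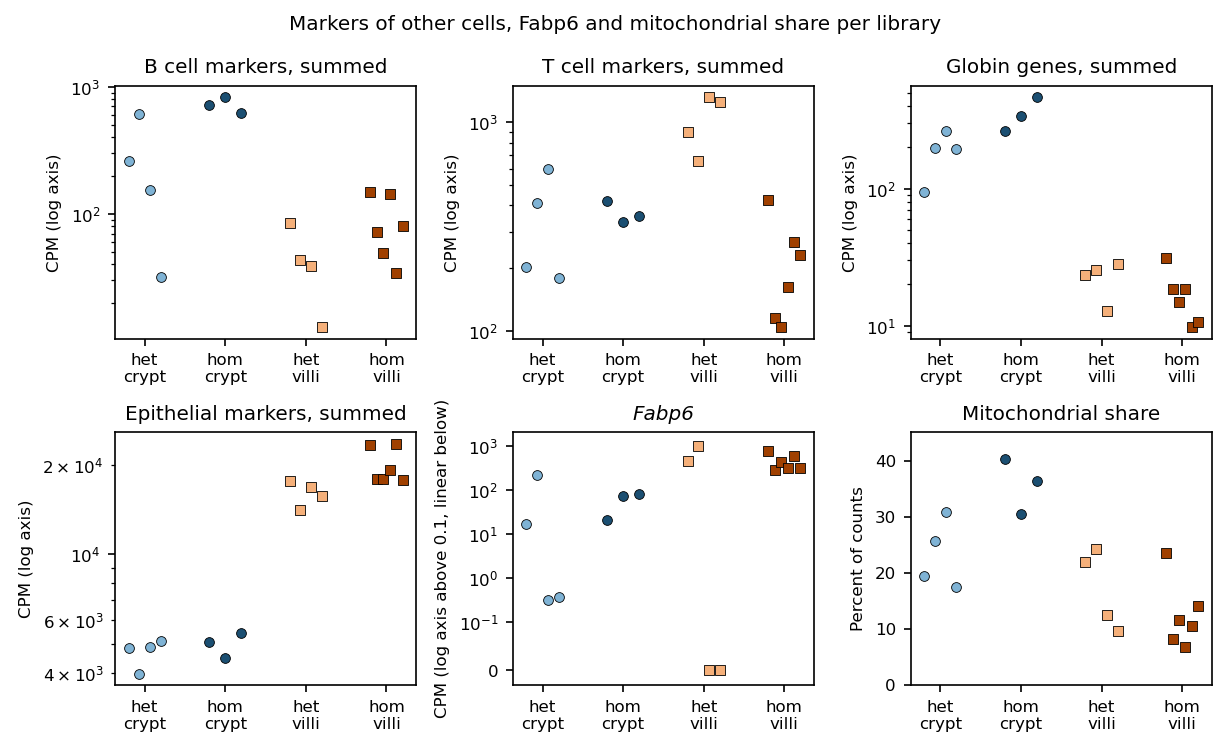
Summed CPM of marker lists, Fabp6 CPM and the percent of counts from mitochondrially encoded genes, 1 point per library, for heterozygous (het) and homozygous (hom) Vil1-CreER crypts and villi; all axes are logarithmic except the mitochondrial share, and the Fabp6 axis is linear below 0.1. B cell and globin sums in homozygous crypts lie above those of homozygous villi, and Fabp6 is at or near 0 in the libraries of 2 heterozygous animals.

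Most genes differed along the crypt-villus axis of the homozygous mice. Of 16059 genes tested, 11140 (69.4%) differed between crypts and villi at an adjusted p under 0.05 in edgeR, 5827 of them (36.3%) higher in crypts and 5313 (33.1%) higher in villi, and 7469 differed by more than 2-fold. The median log2 fold change over all tested genes was 0.05 and the median of its size 0.97. In heterozygous mice 10702 of 15757 genes (67.9%) were called, 35.2% higher in crypts and 32.7% higher in villi. Among 14947 genes tested in both genotypes, 8259 were called in both, which is 78.7% of those called in homozygous and 80.6% of those called in heterozygous mice, and 8105 of the 8259 had the same direction. The fits share no sample. With 69.4% and 67.9% of all tested genes called, nothing more is read from the size of this overlap.

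A score fixed on other animals placed each library along the axis. It is the mean log2 CPM of the 200 crypt-side genes minus that of the 200 villus-side genes with the smallest p in heterozygous Rosa26-CreER mice. The homozygous crypts scored 1.34 ± 0.15 (SD, n = 3) and the homozygous villi -3.32 ± 0.59 (SD, n = 6). The heterozygous crypts scored 1.05 ± 0.27 and the heterozygous villi -3.98 ± 0.33 (SD, n = 4 each). No villus library came near a crypt library. The villi ran from -4.23 in replicate 5 to -2.4 in replicate 4, and the animal of villus replicate 4 had the narrowest span between its own crypt and villus, 3.66 against 4.72 and 4.64 in the other two homozygous animals and 4.89 to 5.13 in the heterozygous animals. Both parts of the score were lower in homozygous crypts: the crypt-side mean was 5.38 ± 0.12 against 5.79 ± 0.06 in heterozygous crypts, and the villus-side mean 4.04 ± 0.14 against 4.74 ± 0.27. Of the 193 crypt-side genes tested in homozygous mice 190 were higher in crypts, and of the 200 villus-side genes 199 were higher in villi and 1 in crypts. Fabp6 in Rosa26-CreER mice was at 74.2 to 386 CPM in heterozygous crypts and at most 0.0537 CPM in villi, and how far this gap shaped the choice of score genes was not tested.

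**Figure D2:**
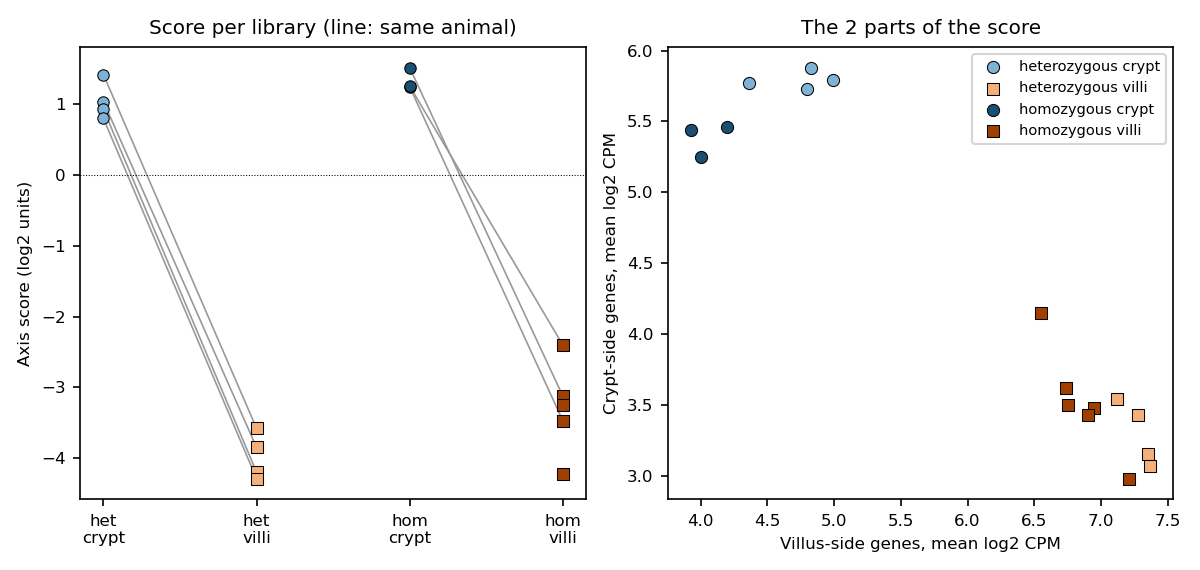
Left, axis score in log2 units per library, with lines joining crypt and villi of 1 animal; right, the 2 means that make up the score, in log2 CPM. Homozygous crypts lie at 1.25 to 1.52 and homozygous villi at -4.23 to -2.4, with villus replicate 4 highest.

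Whether the crypt-villus difference itself depended on genotype was tested for 17821 genes. The difference was called for 2766 of them (15.5%): 1094 (6.14%) had a more positive value in homozygous mice and 1672 (9.38%) a more negative one, with a median of -0.11 over all genes. Among 2619 called genes that could be placed by sign in both genotypes, 601 were crypt-side genes with a smaller and 300 with a larger difference in homozygous mice. Of the villus-side genes 230 had a smaller and 631 a larger difference. Another 372 had a positive value in heterozygous and a negative one in homozygous mice, and the rest the reverse. These classes use the sign alone, whether or not the gene was called in either genotype, so values near 0 are included. Of the 8259 genes called in both genotypes, 154 had opposite directions. Without the 2 heterozygous animals low in Fabp6, 659 of 18180 genes (3.62%) were called, 269 (1.48%) more positive and 390 (2.15%) more negative. With 2 heterozygous animals left, that fit also holds 4 fewer libraries. The classes by sign in the smaller fit were 111 and 49 for crypt-side genes with a smaller or larger difference, and 67 and 156 for villus-side genes. Where a difference between genotypes given below for a gene was not called without those 2 animals, its p from that fit is given.

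**Figure D3:**
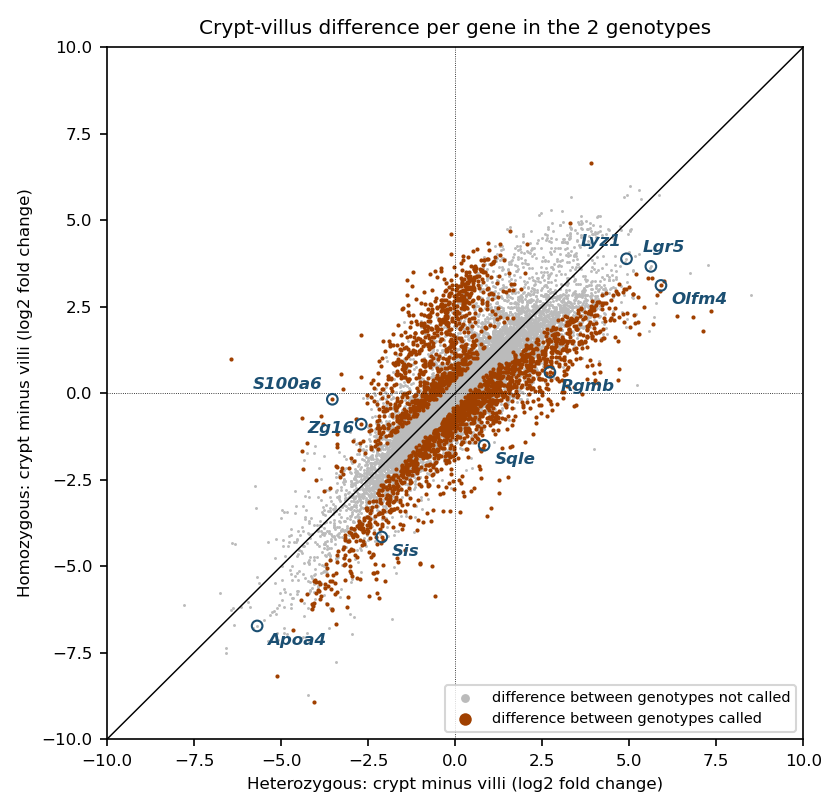
Log2 fold change of crypts over villi per gene in heterozygous (x axis) and homozygous (y axis) Vil1-CreER mice for 14947 genes; the 2619 coloured points are genes whose difference between genotypes was called, and the solid line marks equal values. Stem cell genes such as Olfm4 lie under the line on the crypt side, Sis under it on the villus side, and S100a6 lies near 0 in homozygous mice and at -3.53 in heterozygous mice.

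Stem cell and Wnt target genes stayed on the crypt side in homozygous mice, and for many the gap to the villus was smaller than in heterozygous mice. All 19 tested members of the list of 20 were higher in crypts (median log2 fold change 2.20), as were all 20 in heterozygous mice (median 3.64). Between genotypes the gap was called more negative in homozygous mice for 14 of 20 (median -1.49) and, without the 2 animals low in Fabp6, for 1 (median -1.35). Olfm4, a secreted glycoprotein of crypt base columnar cells, was at 101, 298 and 321 CPM in the 3 homozygous crypts and at 7.12 to 81.2 CPM in villi with a median of 23.8. Its groups did not overlap, with a log2 fold change of 3.11 ± 0.65 (adjusted p = 0.00138). In heterozygous crypts Olfm4 stood at 4560 to 5100 CPM, and the difference between genotypes was -2.8 ± 0.9 (adjusted p = 0.0459, and 0.22 without the 2 animals).

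Lgr5, the R-spondin receptor that marks the stem cells, was at 2.57, 4.48 and 2.91 CPM in homozygous crypts and 0.0437 to 0.546 CPM in villi (median 0.257; log2 fold change 3.66 ± 0.49, adjusted p = 0.0000446). Heterozygous crypts held 43.5 to 83.9 CPM of Lgr5 and heterozygous villi 0.572 to 2.54 CPM, so both tissues were lower in the homozygous mice while the crypt stayed above the villus. The difference between genotypes was -1.96 ± 0.69 (adjusted p = 0.062), and was called with the animal as a block (-2.79, adjusted p = 0.00798). Rgmb, a co-receptor of the BMP pathway, was the 1 member called without the 2 animals. Its level was 28.5, 36.7 and 31.1 CPM in homozygous crypts and 15.9 to 27.2 CPM in villi (median 22.3), a log2 fold change of 0.60 ± 0.18 against 2.72 in heterozygous mice (difference -2.12 ± 0.22, adjusted p = 0.0000853, and 0.00761 without the 2 animals). The Wnt target Axin2 differed less between genotypes. Its homozygous crypts were at 127, 144 and 144 CPM and its villi at 48 to 90.2 CPM (median 59.6), with log2 fold changes of 1.22 ± 0.17 in homozygous and 1.6 in heterozygous mice (difference -0.39 ± 0.23, adjusted p = 0.266). Ascl2, the transcription factor of the stem cell program, was at 9.16, 10.9 and 7.94 CPM in homozygous crypts and 0.437 to 1.56 CPM in villi (median 0.996; log2 fold change 3.33 ± 0.30). Tnfrsf19, a Wnt target receptor, was at 0.115, 0.906 and 0.763 CPM in homozygous crypts against 10.6 to 17.5 CPM in heterozygous ones, overlapped with its villi at 0 to 0.39 CPM (median 0.104), and its crypt call (2.23 ± 0.82, adjusted p = 0.0303) was lost with the animal as a block (0.185). The summed stem cell markers were at 1200 to 1540 CPM in homozygous crypts and 195 to 666 CPM in villi, against 6810 to 7460 and 219 to 415 CPM in heterozygous mice.

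**Figure D4:**
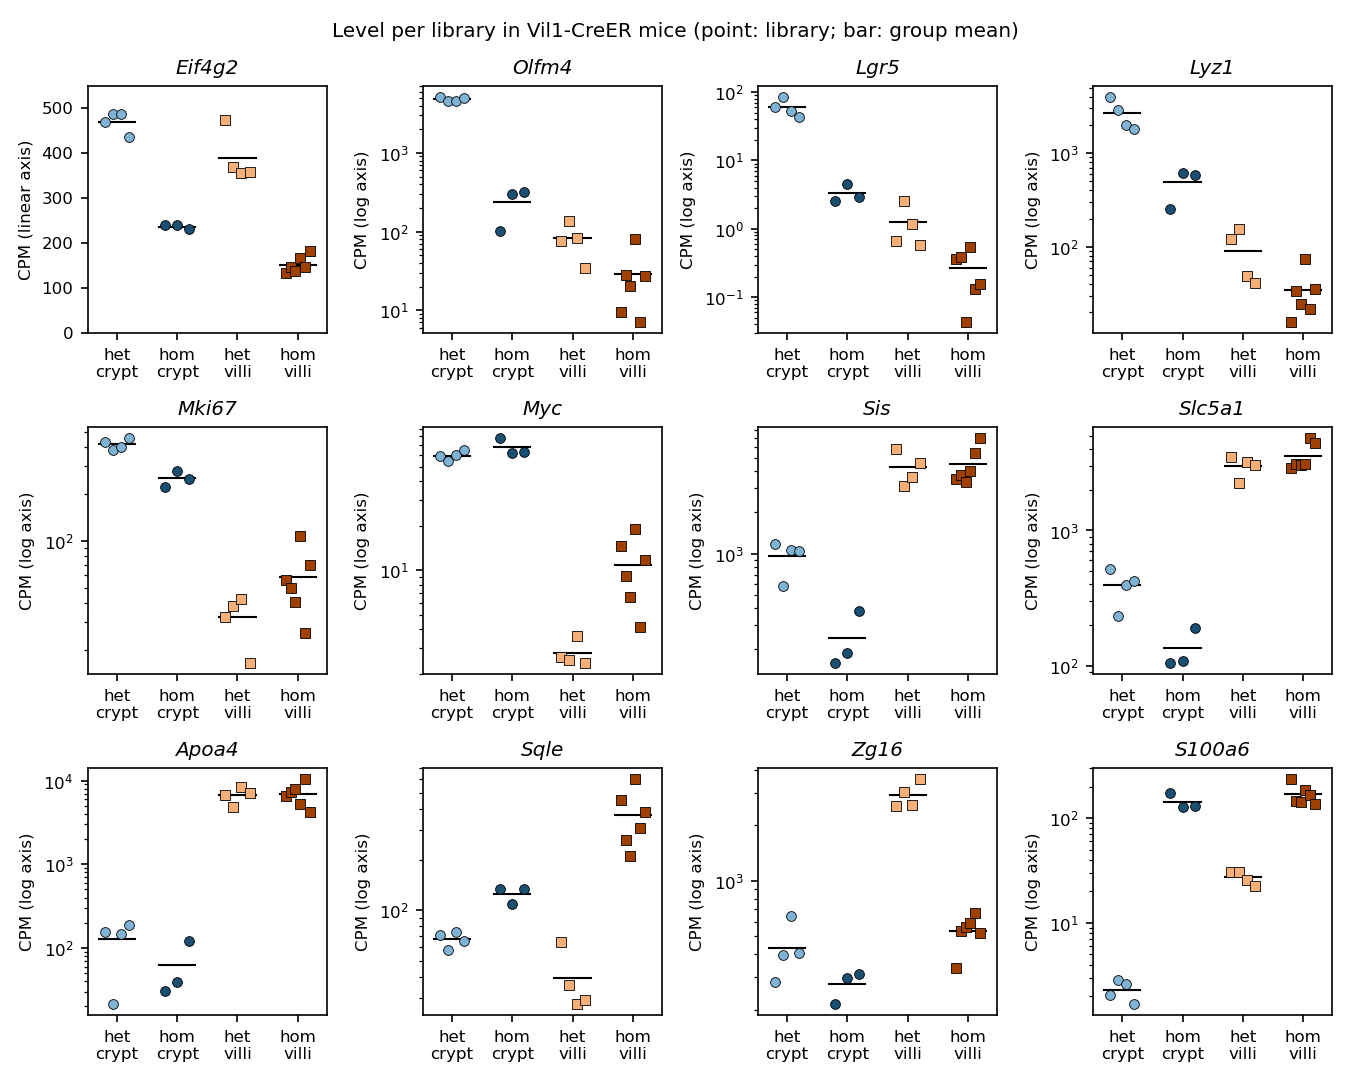
CPM of 12 genes, 1 point per library and a bar at the group mean, in heterozygous (het) and homozygous (hom) Vil1-CreER crypts and villi; axes are logarithmic except for Eif4g2. Olfm4, Lgr5 and Lyz1 are lower in homozygous than in heterozygous crypts yet above the homozygous villi, and S100a6 is at 127 CPM or more in every homozygous library and at most 31 CPM in every heterozygous one.

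Cell division genes marked the homozygous crypts. All 21 tested mitosis genes were higher in crypts (median log2 fold change 2.61, against 3.99 in heterozygous mice), as were 23 of 24 DNA replication genes (median 2.59, against 3.2). A negative difference between genotypes was called for 7 of the 21 mitosis genes (11 with the animal as a block, 1 without the 2 animals) and for 2 of the 24 replication genes (8 with the block, none without the 2 animals). Mki67, a protein of cycling cells, was at 222, 281 and 250 CPM in homozygous crypts and 25.6 to 108 CPM in villi (median 53.1; log2 fold change 2.16 ± 0.33, adjusted p = 0.000142). Replicate 4 was the highest villus library for Mki67 as it was for Olfm4. Heterozygous mice had 383 to 454 CPM in crypts and 16.5 to 42.4 CPM in villi, a difference between genotypes of -1.58 ± 0.48 (adjusted p = 0.0374, and 0.154 without the 2 animals). Kif23, a kinesin of the dividing cell's midzone, was at 76.6, 88.1 and 86.8 CPM in homozygous crypts and 25.7 to 55.3 CPM in villi (median 42.6), where heterozygous villi had 4.4 to 12.8 CPM (difference -2.09 ± 0.38, adjusted p = 0.00324). Here the crypts of both genotypes were alike in range, with 65.7 to 90.4 CPM in heterozygous mice, and the villi stood apart. Myc, a Wnt-responsive growth regulator, showed the same arrangement, with 77.8, 62.2 and 62.4 CPM in homozygous crypts, 4.15 to 19.1 CPM in villi (median 10.5; 2.69 ± 0.35), and 54.5 to 64.4 and 2.38 to 3.61 CPM in heterozygous mice (difference -1.79 ± 0.47, adjusted p = 0.0185, and 0.113 without the 2 animals).

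Paneth cells sit between the stem cells and secrete antimicrobial proteins. Of 11 tested Paneth genes other than defensins, 9 were higher in homozygous crypts and 1, the lipase relative Pnliprp2, was higher in villi (-2.42 ± 0.79, adjusted p = 0.0174, and 0.0725 with the animal as a block). The list's median log2 fold change was 3.29, against 4.08 in heterozygous mice, and the difference between genotypes was called for 1 member (3 with the block, none without the 2 animals). Lyz1, the lysozyme of Paneth cells, was at 252, 621 and 587 CPM in homozygous crypts and 15.9 to 74.6 CPM in villi (median 29.5), a log2 fold change of 3.88 ± 0.44 (adjusted p = 0.0000175). Heterozygous crypts had 1790 to 3950 CPM, above all 3 homozygous crypts, and heterozygous villi 41.3 to 156 CPM. For Lyz1 the difference between genotypes was -1.05 ± 0.71 (adjusted p = 0.332, and 0.047 with the animal as a block). Mmp7, which cuts pro-defensins into active peptides, was at 33, 43.5 and 39.3 CPM in homozygous crypts and 0.35 to 3.55 CPM in villi (median 0.817; 4.75 ± 0.54), with nearly the same log2 fold change in heterozygous mice (5.06). Of the 39 alpha-defensin genes, whose near-identical sequences make the split of reads among them uncertain, 7 passed the filter on low counts in the homozygous fit and 22 in the heterozygous fit. Their sum was 32.1 to 183 CPM in homozygous crypts and 1.07 to 8.98 CPM in villi, and 1270 to 3020 and 42.5 to 144 CPM in heterozygous mice. Crypt replicate 1 was the lowest of the 3 homozygous crypts for Olfm4, Lyz1 and Defa24 (18.9 CPM, against 99.1 and 85.5 CPM).

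Secretory and hormone cells occur along the whole axis, and in homozygous mice more of their genes were higher in crypts than in villi. The summed levels of the goblet, enteroendocrine and tuft cell markers were below those of heterozygous mice in both tissues. Of all tested genes 36.3% were higher in crypts and 33.1% in villi. The summed level of the 15 goblet cell markers overlapped between the homozygous tissues, at 1580 to 2170 CPM in crypts and 1650 to 2820 CPM in villi. In heterozygous mice that sum was 4130 to 6420 CPM in crypts and 9600 to 15200 CPM in villi. Of 14 goblet cell genes, 7 were higher in crypts and 2 in villi (1 with the animal as a block) in homozygous mice (median 0.75), against 5 and 7 in heterozygous mice (median -0.30), and the difference between genotypes was called positive for 7 (5 without the 2 animals) and negative for none. Zg16, a lectin of mucus, was at 216, 299 and 313 CPM in homozygous crypts and 336 to 666 CPM in villi (median 548; -0.90 ± 0.21, adjusted p = 0.00265). The heterozygous villi held 2550 to 3550 CPM of Zg16 and the crypts 283 to 649 CPM, so the crypts of the genotypes overlapped and the villi did not (difference 1.80 ± 0.33, adjusted p = 0.00295). Atoh1, the transcription factor that commits cells to the secretory fate, was at 8.55, 13.2 and 11.5 CPM in homozygous crypts and 3.56 to 4.85 CPM in villi (median 3.97; 1.49 ± 0.19, adjusted p = 0.0000272). In heterozygous mice Atoh1 overlapped between crypts (19.6 to 25.3 CPM) and villi (16.5 to 27 CPM; difference between genotypes 1.30 ± 0.24, adjusted p = 0.00341). Spink4, a goblet cell peptide, was higher in homozygous crypts at 67.4, 84.4 and 82.3 CPM against 11.8 to 25.5 CPM in villi (median 13.6; 2.36 ± 0.22).

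Of 17 enteroendocrine genes, 10 were higher in homozygous crypts and 2 in villi (median 0.98), against 6 and 5 in heterozygous mice (median -0.22; 5 and 8 without the 2 animals, median -0.69). The 17 genes summed to 168 to 176 CPM in homozygous crypts and 73 to 138 CPM in homozygous villi. Their sums in heterozygous mice were 664 to 858 CPM in crypts and 611 to 1120 CPM in villi. For 6 members the genotypes differed with a positive and for 1 with a negative sign, and with the animal as a block for 3 and 2. Without the 2 animals low in Fabp6 these were 4 and none. The 1 was Chga, the granule protein chromogranin A, which was at 14.8, 11 and 13.2 CPM in homozygous crypts and 24.1 to 39.9 CPM in villi (median 30.3; -1.19 ± 0.19, adjusted p = 0.000153). In heterozygous mice Chga was at 96.6 to 107 CPM in crypts and 75.5 to 134 CPM in villi, and the difference between genotypes was -1.07 ± 0.24 (adjusted p = 0.00892, and 0.0796 without the 2 animals). The related granule gene Chgb had the opposite direction in the same libraries, at 102, 108 and 103 CPM in homozygous crypts and 23.9 to 58.9 CPM in villi (median 42.6; 1.43 ± 0.25). Neurog3, the transcription factor of hormone cell progenitors, was at 0.69, 1.67 and 2.08 CPM in homozygous crypts and at most 0.131 CPM in villi. Of 10 tuft cell genes, 5 were higher in homozygous crypts and 1, Ltc4s, in villi (median 0.85; 3 higher in crypts with the animal as a block). All 13 listed tuft cell genes together summed to only 16.8 to 18.2 CPM in homozygous crypts and 10.3 to 15.9 CPM in homozygous villi. In heterozygous mice that sum was 163 to 191 CPM in crypts and 149 to 223 CPM in villi.

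The absorptive program of the homozygous mice lay far on the villus side. All 18 brush border genes were higher in villi (median log2 fold change -4.28), as were 11 of 12 nutrient transporters (median -4.40) and 16 of 17 lipid absorption genes (median -4.32). In heterozygous mice the medians were -3.08, -2.92 and -3.37. A negative difference between genotypes was called for 9 of 18, 7 of 12 and 8 of 17 genes (7, 5 and 4 with the animal as a block), and without the 2 animals for none, none and 1. Without them the medians of the difference were still -1.15, -1.24 and -0.89. Sucrase-isomaltase, Sis (chr3:72888557-72967863), which splits disaccharides, was at 159, 187 and 381 CPM in homozygous crypts and 3330 to 6980 CPM in villi with a median of 3890. Crypt replicate 3 was the highest of the crypts, and the log2 fold change was -4.16 ± 0.39 (17.9-fold higher in villi, adjusted p = 0.00000378). Heterozygous crypts had 577 to 1170 CPM and villi 3130 to 5790 CPM, so the difference between genotypes (-2.06 ± 0.45, adjusted p = 0.00796, and 0.0938 without the 2 animals) went with lower crypts at villus levels in the same range. Alpi (chr1:87098002-87101606), the intestinal alkaline phosphatase, was at 10.4, 11.1 and 29.3 CPM in homozygous crypts and 913 to 2000 CPM in villi (median 1100; -6.10 ± 0.48), with a difference between genotypes of -2 ± 0.47 (adjusted p = 0.011, and 0.0833 without the 2 animals).

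The promoters of these brush border genes are shown because their 250 bases before the start site hold short letter runs that the transcription factors HNF4 and CDX2, regulators of enterocyte genes, are known to prefer. Sequences come from RefSeq with build GRCm38.p6, run 5′ to 3′ in the direction of the gene and end at the base before the start site. Capitals mark CAAAGTC (HNF4) and TTTATNG (CDX) on either strand, so that a CDX match on the other strand reads CNATAAA.
Alpi, chr1:87101607-87101856, minus strand: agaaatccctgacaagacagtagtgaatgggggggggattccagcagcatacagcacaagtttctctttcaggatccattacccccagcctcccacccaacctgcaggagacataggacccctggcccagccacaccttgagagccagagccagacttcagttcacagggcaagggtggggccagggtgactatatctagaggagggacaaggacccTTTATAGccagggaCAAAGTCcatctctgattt
Sis, chr3:72967864-72968113, minus strand: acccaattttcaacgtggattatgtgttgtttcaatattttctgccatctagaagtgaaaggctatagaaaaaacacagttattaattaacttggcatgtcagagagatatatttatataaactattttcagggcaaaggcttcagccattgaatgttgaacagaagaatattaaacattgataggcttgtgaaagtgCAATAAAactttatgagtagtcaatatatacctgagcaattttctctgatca
In Alpi the CDX letters begin 33 bases and the HNF4 letters 19 bases before the start site, without overlap. In Sis the CDX letters lie on the opposite strand and begin 52 bases before the start site. Of 15 brush border genes with a promoter in the table, the HNF4 letters occurred in 4 (Ace, Alpi, Cdhr2 and Treh) and the CDX letters in 3 (Alpi, Dpp4 and Sis). Of 13 lipid absorption genes, 5 held the CDX letters (Abcg5, Abcg8, Apob, Fabp1 and Fabp2) and none the HNF4 letters, and of 12 nutrient transporters 2 held the HNF4 and 1 the CDX letters. Over all 27025 promoters of the table, 3.8% held the HNF4 and 10.2% the CDX letters in the same 250 bases, and over the 11008 promoters of tested genes 3.54% and 6.52%. A match is a run of letters and no evidence of binding. Promoters were found for 68.6% of the genes tested, for 70.8% of those higher in crypts and for 71.1% of those higher in villi. Motif shares were not tested between crypt-side and villus-side genes.

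Transport and lipid genes repeated the pattern of the brush border. Slc5a1, the sodium-glucose cotransporter SGLT1, was at 105, 108 and 191 CPM in homozygous crypts and 2890 to 4810 CPM in villi (median 3100; -4.67 ± 0.32, adjusted p = 4.75e-07), against -2.89 in heterozygous mice (difference -1.80 ± 0.37, adjusted p = 0.00603, and 0.0661 without the 2 animals). Slc2a2, the basolateral glucose carrier GLUT2, was at 2.26, 3.36 and 5.93 CPM in crypts and 160 to 445 CPM in villi (median 256; -6.09 ± 0.47). The exception among transporters was Slc1a1, a glutamate carrier, at 30.6, 34.5 and 43.9 CPM in crypts and 18 to 71.3 CPM in villi (median 44.8), where the groups overlapped (-0.31 ± 0.37, adjusted p = 0.472). Apoa4, an apolipoprotein of chylomicrons, was at 30.2, 38.8 and 121 CPM in homozygous crypts and 4270 to 10400 CPM in villi (median 6890), a 106-fold gap (-6.73 ± 0.61). Apoa4 had -5.69 in heterozygous mice and was not called as different between genotypes (-1.05 ± 0.73, adjusted p = 0.347). Fabp1, a fatty acid binding protein, had the same log2 fold change in both genotypes (-4.20 ± 0.29 and -4.18; difference -0.03 ± 0.49). Plin2, which coats lipid droplets, was the lipid gene that was not called in homozygous mice (21, 20.2 and 19 CPM in crypts, 19.7 to 29 CPM in villi with a median of 25.1; -0.23 ± 0.16).

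Genes of both ends of the villus were higher in villi than in crypts. All 8 genes of the villus bottom (median -2.29) and all 8 of the villus tip (median -3.95) were higher in homozygous villi. In heterozygous mice 6 and 7 were (medians -1.81 and -3.79). Ccl25, a chemokine of the lower villus that attracts lymphocytes, was at 55.6, 66.7 and 73.1 CPM in homozygous crypts and 431 to 573 CPM in villi (median 503; -2.90 ± 0.16, adjusted p = 1.62e-07). In heterozygous crypts Ccl25 was at 178 to 247 CPM, and its difference between genotypes was called with and without the 2 animals (-1.24 ± 0.19, adjusted p = 0.00122 and 0.0243). Ada, the adenosine deaminase of the villus tip, was at 19.1, 22.1 and 52.6 CPM in homozygous crypts and 1040 to 4300 CPM in villi (median 2350; -6.21 ± 0.62), close to -6.38 in heterozygous mice (difference 0.16 ± 0.66). Egfr, another tip gene in the list, separated the genotypes: 23.7, 21.7 and 22.8 CPM in homozygous crypts and 54.5 to 166 CPM in villi (median 69.2; -1.83 ± 0.34), but overlapping heterozygous crypts (26.7 to 32.8 CPM) and villi (22.3 to 40 CPM; difference -1.72 ± 0.41, adjusted p = 0.0124, and 0.102 without the 2 animals).

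**Figure D5:**
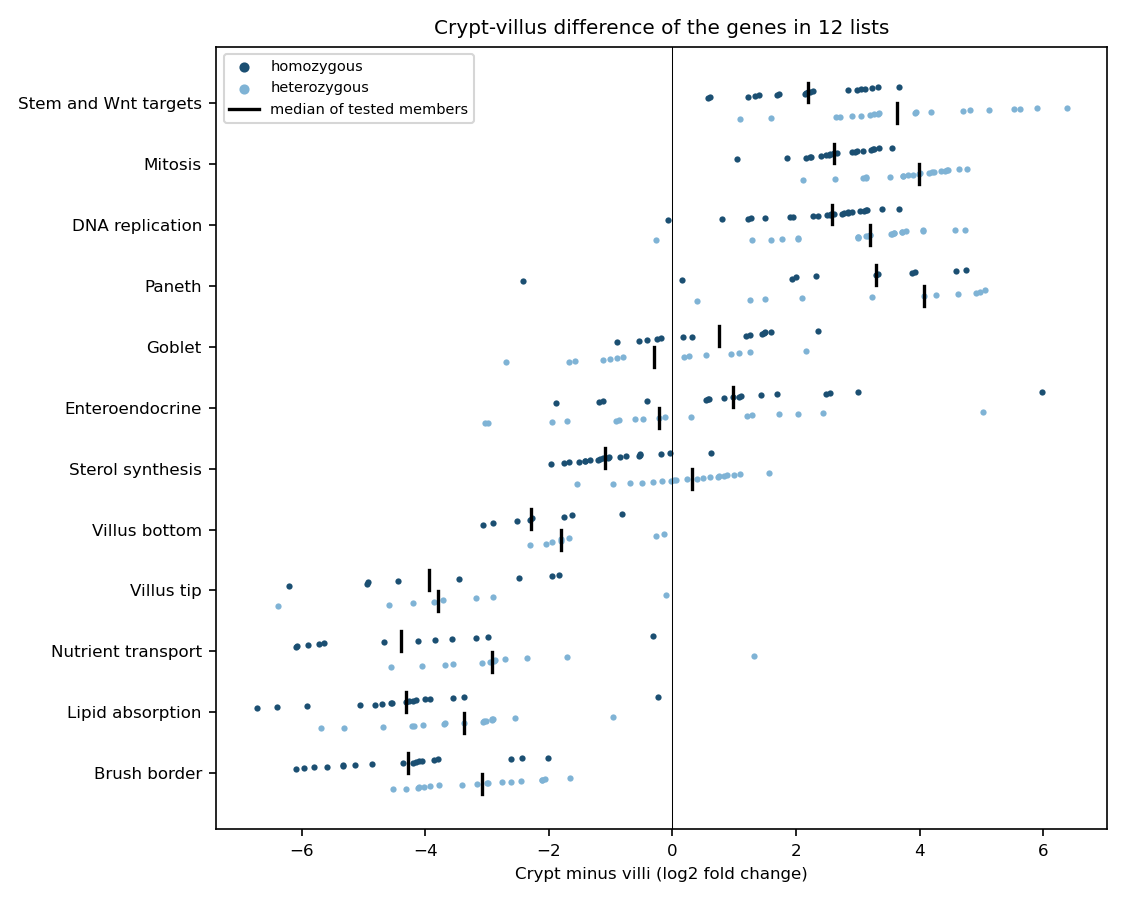
Log2 fold change of crypts over villi for the tested members of 12 gene lists in homozygous (dark) and heterozygous (light) Vil1-CreER mice, with a bar at each list's median; values over 0 are higher in crypts. Brush border, transport and lipid genes have homozygous medians of -4.28, -4.40 and -4.32, stem cell genes 2.20 against 3.64 in heterozygous mice, and sterol genes -1.09 against 0.31.

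Transcription factors and signals of the axis had members on both sides. Of all tested genes 36.3% were higher in homozygous crypts and 33.1% in villi. Identity factors and BMP genes had more members higher in villi, and Notch genes more in crypts. Of 20 identity transcription factors, 4 were higher in homozygous crypts and 11 in villi (median -0.59), close to 5 and 10 in heterozygous mice. Hnf4a, an activator of enterocyte genes, was at 539, 628 and 673 CPM in homozygous crypts and 987 to 1530 CPM in villi (median 1120; -0.89 ± 0.18), its paralog Hnf4g at -1.73 ± 0.18, and the intestinal identity factor Cdx2 at -0.26 ± 0.12 (adjusted p = 0.0671). Vdr, the vitamin D receptor, differed between genotypes. It was at 102, 132 and 147 CPM in homozygous crypts and 339 to 602 CPM in villi (median 450; -1.80 ± 0.20), while heterozygous crypts (363 to 509 CPM) and villi (437 to 597 CPM) overlapped (difference -1.6 ± 0.24, adjusted p = 0.000998, and 0.0237 without the 2 animals).

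Of 11 BMP pathway genes, 3 were higher in homozygous crypts and 6 in villi, with the inhibitory target Smad7 at 11.8, 15 and 14.1 CPM in crypts and 85.3 to 169 CPM in villi (median 116; -3.08 ± 0.22) and the ligand Bmp2 at -3.27 ± 0.44. Id2, an inhibitor of helix-loop-helix factors and a BMP target, was higher in homozygous crypts (14.6, 16.4 and 13.8 CPM against 6.75 to 11.1 CPM in villi, median 8.58; 0.83 ± 0.19) and higher in heterozygous villi (-0.72). Its difference between genotypes was 1.55 ± 0.24 (adjusted p = 0.000998, and 0.0199 without the 2 animals). Of 12 Notch pathway genes, 7 were higher in homozygous crypts and 2 in villi (median 0.92). The receptor Notch1 was at 15.6, 18.6 and 15.2 CPM in crypts and 1.49 to 5.19 CPM in villi (median 2.58; 2.56 ± 0.29). The target Hes1, a repressor of Atoh1, had a narrower gap than in heterozygous mice: 28, 33.2 and 29.8 CPM in homozygous crypts and 19.3 to 22.1 CPM in villi (median 21; 0.60 ± 0.11), against 47 to 50.7 and 11.4 to 20.8 CPM (difference -1.25 ± 0.21, adjusted p = 0.00193, and 0.00385 without the 2 animals). The ligand Dll1 was higher in villi of both genotypes, by -1.75 ± 0.17 in homozygous and -0.58 in heterozygous mice (difference -1.17 ± 0.24, adjusted p = 0.00566).

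Sterol synthesis genes lay on the villus side in homozygous mice and on both sides in heterozygous mice. Of 20 tested, 16 were higher in homozygous villi and none in crypts (median -1.09), whereas in heterozygous mice 9 were higher in crypts and 4 in villi (median 0.31). Without the 2 animals low in Fabp6 these were 3 and 4 (median 0.07). The difference between genotypes was called negative for 11 of 20 (median -1.09) and, without the 2 animals, for 3 (median -0.93). Sqle, the squalene epoxidase, was at 133, 109 and 133 CPM in homozygous crypts and 211 to 601 CPM in villi (median 345; -1.51 ± 0.30, adjusted p = 0.000813). Heterozygous crypts had 58 to 74.3 CPM and villi 27.7 to 64.7 CPM, below every homozygous library of the same tissue, and the difference between genotypes was -2.34 ± 0.43 (adjusted p = 0.00332, and 0.0531 without the 2 animals). Cyp51, the lanosterol demethylase, went from 0.73 in heterozygous to -1.68 ± 0.28 in homozygous mice (difference -2.41 ± 0.37, adjusted p = 0.00118 and 0.0288 without the 2 animals). Srebf2, which encodes the transcription factor that activates sterol synthesis genes, did not pass the test in homozygous mice (-0.19 ± 0.19, adjusted p = 0.383).

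Genes of the fetal-like and regenerating epithelium were split in homozygous mice, with 7 of 14 tested higher in crypts and 4 in villi (median 0.91). Of all tested genes 36.3% and 33.1% were. In heterozygous mice the counts were 5 and 7 (median -0.76). The summed level of the whole list lay on the villus side, with medians of 394 CPM in homozygous crypts and 1140 CPM in villi. These homozygous groups did not overlap. In heterozygous mice the medians of the sum were 135 CPM in crypts and 508 CPM in villi. Every homozygous library had a higher sum than the heterozygous libraries of the same tissue. The difference between genotypes was called positive for 2 of 16 tested members and negative for none (median -0.04). Without the 2 animals low in Fabp6 it was again called positive for 2 and negative for none (median -0.01). S100a6, a calcium-binding protein of this list, did not pass the test between the homozygous tissues. It was at 174, 127 and 132 CPM in homozygous crypts and 136 to 236 CPM in villi (median 157), overlapping groups with a log2 fold change of -0.18 ± 0.18 (adjusted p = 0.402, and 0.049 with the animal as a block). In heterozygous mice S100a6 was at 1.69 to 2.83 CPM in crypts and 22.4 to 31 CPM in villi (-3.53). The difference of 3.36 ± 0.26 had an adjusted p of 0.00000203, and of 0.0008 without the 2 animals. Anxa3, an annexin of the same list, was at 25.3, 9.66 and 12.9 CPM in homozygous crypts and 3.8 to 11.5 CPM in villi (median 6.45; 1.29 ± 0.37), overlapping in 1 crypt library, against -1.58 in heterozygous mice (difference 2.86 ± 0.47, adjusted p = 0.0016 and 0.0416 without the 2 animals). The growth factor Areg was higher in homozygous villi (9.51, 4.98 and 6.63 CPM against 51.1 to 181 CPM, median 71.6; -3.59 ± 0.46), and Ly6a in crypts (2.88 ± 0.67). Clu, a marker of revival stem cells, was at 11.2, 5.6 and 2.81 CPM in crypts and 2.24 to 5.4 CPM in villi (median 3.89; 0.84 ± 0.37, adjusted p = 0.0628).

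Of 14 p53 target genes, 6 were higher in homozygous crypts and 5 in villi, where 36.3% and 33.1% of all tested genes were. Nothing is read from this split. Zmat3, an RNA-binding p53 target, was at 117, 92.4 and 96.2 CPM in homozygous crypts and 41 to 59.4 CPM in villi (median 51.6; 1.07 ± 0.13), with all 9 homozygous libraries above the 12 to 19.8 CPM of the heterozygous libraries. Its difference between genotypes was 1.53 ± 0.17 (adjusted p = 0.000157, and 0.0114 without the 2 animals). The cell cycle inhibitor Cdkn1a was higher in villi (135, 85.6 and 91.9 CPM against 352 to 981 CPM, median 421; -2.28 ± 0.35), as in heterozygous mice (-2.87). Of 14 genes of the integrated stress response, 7 were higher in crypts and 6 in villi, beside the same shares of all tested genes. Those on the crypt side included the serine synthesis enzyme Phgdh (9.81, 9.61 and 4.16 CPM against 0.0621 to 0.761 CPM, median 0.124; 5.12 ± 0.56), and those on the villus side the transcription factor Atf3 (2.53, 3.15 and 4.96 CPM against 34.4 to 151 CPM, median 51.2; -4.31 ± 0.61).

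The other translation initiation factors mostly followed the crypt, as did the ribosome. Of 20 tested initiation factor genes, 13 were higher in homozygous crypts and 1 in villi (median 0.86), and 75 of 76 ribosomal protein genes were higher in crypts (median 1.91), close to the heterozygous medians of 0.68 and 1.72. Ribosomal protein genes have many processed pseudogenes, so their counts are uncertain. Eif3e, a subunit of the eIF3 complex, was at 142, 140 and 141 CPM in homozygous crypts and 38.4 to 53 CPM in villi (median 42.7; 1.74 ± 0.11, adjusted p = 2.65e-07). Eif4g1, the scaffold of cap-dependent initiation and a relative of Eif4g2, was at 510, 508 and 514 CPM in crypts and 416 to 576 CPM in villi (median 509; 0.07 ± 0.14, adjusted p = 0.671), so the groups overlapped. Between the genotypes 1 of 20 initiation factors and 1 of 76 ribosomal protein genes differed, both more positive in homozygous mice, and with the animal as a block 1 ribosomal protein gene, more negative.

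Immune and globin genes had the highest crypt-side values among abundant genes, and enterocyte genes the highest villus-side values. By the rule for named genes, the 10 with the highest crypt-side values included Ighg2b, Ighd, Ms4a1, Cd22 and Cd79a, which belong to B cells and plasma cells, the globins Hba-a1 and Hbb-bs, the membrane linker Msn, and Lyz1. Cd79a, a chain of the B cell receptor, was at 106, 124 and 77.4 CPM in homozygous crypts and 0.382 to 12.3 CPM in villi (median 3.75; 4.53 ± 0.60, adjusted p = 0.000058). All 7 B cell markers tested were higher in homozygous crypts (median 4.33), and 2 were in heterozygous mice (7 with the animal as a block, and 7 without the 2 animals, in a fit that called 55% of genes), where their sum ranged from 31.6 to 606 CPM over the 4 crypts. Hba-a1, an alpha globin with a near-identical copy, was at 107, 126 and 169 CPM in crypts and 2.93 to 11 CPM in villi (median 6.03; 4.45 ± 0.34). Ighg2b, an immunoglobulin heavy chain whose class genes share sequence, spread over the crypts, at 213, 59.9 and 34.4 CPM against 0.344 to 6.81 CPM in villi (median 3.06).

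The 10 with the highest villus-side values were Pck1, Podn, Enpp3, Slc7a15, Apoa4, Acot12, Cyp2b10, Apoc3, Fgf15 and Cyp3a11. Pck1, the enzyme that commits carbon to glucose synthesis, was at 0.383, 0.143 and 0.555 CPM in homozygous crypts and 18.2 to 92.8 CPM in villi (median 55.7; -7.14 ± 0.74, adjusted p = 0.00000986). Enpp3, an ectoenzyme that breaks down nucleotides, was at 4.98, 3.6 and 21.7 CPM in crypts and 889 to 1990 CPM in villi (median 986; -6.79 ± 0.71). Fgf15, the hormone by which the ileum restrains bile acid synthesis in the liver, was at 0.23, 1.17 and 0.728 CPM in homozygous crypts and 16.6 to 117 CPM in villi (median 67.6; -6.39 ± 0.71). In heterozygous mice its villi ranged from 0 to 27.4 CPM, and in homozygous Rosa26-CreER mice the direction was opposite, with 1.65 to 9.8 CPM in crypts and at most 0.0462 CPM in villi. Fabp6 had the same arrangement in those Rosa26-CreER mice, at 73.1 to 330 CPM in crypts and at most 0.0913 CPM in villi, so crypt-villus values of ileal genes are not alike between the sets. Cyp2b10 and Cyp3a11, detoxifying enzymes, belong to gene families with near-identical members, and their counts are uncertain.

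The rule for the difference between genotypes named S100a6, Ets1, Gimap4, Sp100 and Gimap3 on the positive side. Ets1, a transcription factor of lymphocytes, was at 105, 109 and 77 CPM in homozygous crypts and 3.82 to 22.1 CPM in villi (median 7.29; 3.48 ± 0.45), against 12.3 to 132 CPM in heterozygous crypts and 35.4 to 56.1 CPM in villi. Its difference was 3.08 ± 0.82 (adjusted p = 0.0218, but 0.0717 with the animal as a block and 0.134 without the 2 animals). Gimap4 and Gimap3, GTPases of lymphocytes, had differences of 2.94 ± 0.64 (adjusted p = 0.00861, and 0.0662 without the 2 animals) and 2.79 ± 0.67 (0.0138, and 0.103), and Sp100, a nuclear body protein, 2.79 ± 0.69 (0.0159, and 0.148). T cell markers also had positive differences between genotypes, called for 5 of 10 with none negative (median 2.31). Without the 2 animals the difference was called for 2. Of 10 T cell markers, 3 were higher in homozygous crypts and 7 were not called (with the block 4 were higher in crypts and 1 in villi), where 36.3% of all tested genes were higher in crypts. In heterozygous mice 8 were higher in villi, where 32.7% of all tested genes were (medians 0.52 in homozygous and -1.90 in heterozygous mice). Cd3d, a chain of the T cell receptor complex, differed between genotypes by 3.29 ± 0.62 (adjusted p = 0.00383). The part of lymphocyte content in the values of Ets1, Gimap3, Gimap4 and Sp100 was not tested.

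On the negative side the rule named Ces2b, Tm4sf4, Adh1, Slc5a11 and Olfm4. Tm4sf4, a tetraspanin-like membrane protein, was at 17.8, 26.8 and 31.9 CPM in homozygous crypts and 1010 to 2270 CPM in villi (median 1500; -5.86 ± 0.37), against 18.1 to 28.4 CPM in heterozygous crypts and 94.7 to 215 CPM in villi. The crypts of the genotypes had the same range and the villi did not overlap, with a difference of -3.38 ± 0.41 (adjusted p = 0.000229, and 0.0125 without the 2 animals). Ces2b, a carboxylesterase of a family of similar genes, was at 1.92, 4.15 and 6.83 CPM in homozygous crypts and 90.2 to 396 CPM in villi (median 295; -5.93 ± 0.64), and 5.79 to 15.4 CPM in heterozygous villi (difference -3.73 ± 0.75, adjusted p = 0.00627, and 0.0523 without the 2 animals). Adh1, an alcohol dehydrogenase, had lower crypts and lower villi than in heterozygous mice: 2.15, 4.84 and 8.15 CPM in homozygous and 68.3 to 189 CPM in heterozygous crypts, with villi at 82 to 227 CPM (median 139) and 302 to 571 CPM (difference -3.24 ± 0.61, adjusted p = 0.00415, and 0.0416 without the 2 animals). Slc5a11, a sodium-coupled inositol carrier, had -5.90 ± 0.55 in homozygous and -3.09 in heterozygous mice (difference -2.83 ± 0.61, adjusted p = 0.00856, and 0.0714 without the 2 animals).

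In homozygous Rosa26-CreER mice on day 9, 10656 of 15016 genes (71%) were called, 38.6% higher in crypts and 32.4% higher in villi. Among 14288 genes tested in both sets, 8540 were called in both, 83.5% of those called in Vil1-CreER and 84% of those called in Rosa26-CreER mice, and 8472 had the same direction. The tables were scaled separately, and driver, time and Fabp6 differ together between the sets, so their effects cannot be told apart and no test was made between them. Stem cell genes were higher in crypts for 17 of 20 members there (median 3.25), and the difference from heterozygous Rosa26-CreER mice was called negative for 11 of 20 (median -1.49), in a comparison where 1904 of 16495 genes (11.5%) were called, 4.86% more positive and 6.68% more negative in homozygous mice. Rgmb had a log2 fold change of 0.08 (adjusted p = 0.694) in the homozygous Rosa26-CreER mice, with a difference from the heterozygous mice of -2.23 (adjusted p = 0.0000439). Brush border genes were higher in villi for 17 of 18 members (median -3.43), and none was called as different from heterozygous Rosa26-CreER mice (median of the difference 0.09, against -1.25 in Vil1-CreER mice). Sis had a difference of 0.02 (adjusted p = 0.988) there. Sterol genes were higher in villi for 15 of 20 (median -1.02), with 2 called as different from heterozygous mice. The goblet cell genes, of which 7 differed between genotypes in Vil1-CreER mice, had none called in Rosa26-CreER mice (median of the difference 0.02), and S100a6 had a difference of 1.59 (adjusted p = 0.11).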

How the data were processed

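Poly(A)-selected RNA of mouse intestinal crypts and villi was sequenced in libraries that mark strand with dUTP, per the labels' protocols. The authors deposited raw counts per gene, 1 column per library with no normalization; alignment was with HISAT2 2.0.5 to GRCm38 (mm10), per the submitters' processing notes. The counting program, its strand setting and the annotation are not given in the sources used here, so counts of overlapping genes and close paralogs are uncertain. Columns were matched to samples by the column names in the labels, and all of them were used. Precision is limited by the number of animals: 3 crypt and 6 villus libraries, of 23957033 to 36985500 counts in the Vil1-CreER table. P-values measure the spread between animals.

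Crypts and villi were compared in edgeR 4.0.16 under R 4.3.3 (filterByExpr by group with a minimum count of 10, TMM scaling, robust quasi-likelihood F-test, Benjamini-Hochberg adjustment over all tested genes, calls at an adjusted p under 0.05). Log2 fold changes are crypts minus villi, so values over 0 are higher in crypts. The difference between genotypes is the homozygous minus the heterozygous log2 fold change, fitted over the 4 groups. Levels are CPM after TMM scaling over the 17 libraries and are not scaled by gene length. The scripts were tested on simulated data with known changes. The mitochondrial share was compared with an exact permutation test over libraries that did not use the pairing by animal.

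Named genes were the 10 largest log2 fold changes in each direction (5 for the difference between genotypes) among called genes that averaged a log2 CPM of 5 or more and whose groups did not overlap, leaving out predicted genes, pseudogenes and clones. Some results that this rule or the lists would give are not reported here. Gene lists, list members and the comparison itself were chosen with earlier results of these data known, and the other genes described were selected from the lists after their values were seen. Lists are described by counts and medians without a test. Crypts and villi with the same animal number are taken as 1 animal. Deviations from the group means correlated between crypt and villi of the same animal at 0.283, 0.26 and 0.05 in homozygous and at 0.356, 0.324, 0.038 and 0.383 in heterozygous mice. A fit with the animal as a block uses only animals with both tissues and so drops 3 homozygous villus libraries. No library pair agreed within counting noise (lowest chi-square per degree of freedom 28.41).

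Alternatives were DESeq2 1.42.0 size factors and its Wald test, no filter on low counts, no mitochondrial genes, the animal as a fixed block or, in limma 3.58.1 (voom), as a random block, all 4 groups in the fit, 100 score genes per side, and leaving out each library. Leaving out the 2 heterozygous animals under 1 CPM of Fabp6 was added after the data were seen.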

Additional observations from a re-analysis of the deposited data

Results flagged for a closer look

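Among the named genes, the summed other-cell markers, the mitochondrial share and the axis score, the 6 homozygous villi held a library far from the others for 9 of 37 values tested for this, where chance flags about 1 in 20 independent groups. These values share libraries and related genes, so they are not independent. In villus replicate 1 these were the B cell genes Ms4a1 at 12.1 CPM and Cd79a at 12.3 CPM, the lymphocyte genes Ets1 at 22.1 CPM and Gimap3 at 29.4 CPM, Msn at 19.7 CPM and the beta globin Hbb-bs at 17.2 CPM. In villus replicate 4 they were Lyz1 at 74.6 CPM and Olfm4 at 81.2 CPM, and in villus replicate 5 Enpp3 at 1990 CPM. Each of these values was the highest of its group and, for the crypt-side genes, still below the lowest homozygous crypt.

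The rule for the difference between homozygous and heterozygous mice named 10 genes from those already called in that test. Their call was therefore fixed by the choice. The differences were 3.36 for S100a6, 3.08 for Ets1, 2.94 for Gimap4, 2.79 for Sp100 and 2.79 for Gimap3. On the negative side they were -3.73 for Ces2b, -3.38 for Tm4sf4, -3.24 for Adh1, -2.83 for Slc5a11 and -2.8 for Olfm4. Without the heterozygous animals low in Fabp6, Ets1, Gimap4, Sp100, Gimap3, Ces2b, Slc5a11 and Olfm4 were not called. Ets1 was also not called with the animal as a block.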

How the results depend on the processing

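The number of genes that differed between homozygous crypts and villi was 11140 and stayed between 9804 and 12042 over the alternatives (9804 with the animal as a replicate block, 10020 to 11172 leaving out each library). The number whose crypt-villus difference depended on genotype was less settled. It was 2766, 2235 with the animal block, 2088 without the filter on low counts, 3678 by the DESeq2 Wald test and 1456 to 3425 leaving out each library, falling to 1456 without homozygous crypt replicate 1, 1636 without homozygous crypt replicate 2 and 1804 without heterozygous crypt replicate 1. Without the 2 heterozygous animals low in Fabp6 it was 659. In Rosa26-CreER mice that number was 1904, and 1079 to 3068 leaving out each library. No named value changed sign. Over all alternatives of single genes, 7758 of the crypt-villus values and 4197 of the differences between genotypes were labelled the same. Of the rest, 181 and 359 fell short of a call held before, and 87 and 111 gained one. The cause of these changes was not tested. In Vil1-CreER mice, where the animal block changed the call of a printed gene value, or moved a printed list count by over 1.5 times, the blocked value stands beside it. Other list counts moved by less. Precision is set by 3 crypt libraries. The score difference between homozygous crypts and villi was 4.67, and 4.49 to 4.94 over the alternatives. The SD of the score was 0.15 between crypts and 0.59 between villi. The gap in mitochondrial share was 23.2 percentage points, and 20.9 to 25.9 over the alternatives.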
